A study of Mus musculus with 24 samples.

Results

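The genes described here are 9 members of the ABCC subfamily of ATP-binding cassette proteins, Abcc1, Abcc2, Abcc3, Abcc4, Abcc5, Abcc6, Abcc9, Abcc10 and Abcc12, in mouse livers that received oncogene plasmids, a liver toxin or both. They were selected on their symbols from the 53467 genes of a count table, with their levels across the 6 groups already known, so those levels are given as a description and no p-value is printed for any of the 9. They are all the genes with an Abcc symbol except Abcc8, a regulatory subunit of the pancreatic potassium channel, which had 0 counts in every liver. All 9 passed the filter on low counts, at least 0.5 CPM (counts scaled to a common library total) in at least 2 livers, as did 19381 genes in all. Abcc1 and Abcc12 reached that level in 20 of 24 livers, Abcc4 in 23, and the other 6 genes in all 24. The shared name of conjugate exporters does not hold for Abcc9, which encodes SUR2, the regulatory subunit of an ATP-sensitive potassium channel, and transports nothing itself.

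ABCC exporters use the energy of ATP to move organic anions out of cells, among them drugs, bilirubin and bile acids that were first joined to glutathione, glucuronate or sulfate. In a hepatocyte, Abcc2 (MRP2) sits in the canalicular membrane and exports into bile, whereas Abcc3 (MRP3) and Abcc4 (MRP4) sit in the basolateral membrane and export into blood. The transcription factors NRF2, which answers oxidative and electrophilic stress, and CAR and PXR, which answer foreign compounds, are known to switch on several of these genes in mouse liver.

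Livers of 24 male C57BL/6JAusb mice were sequenced, 1 library each. At 14 to 15 weeks of age each mouse had received 0.8 µg of a Sleeping Beauty transposase plasmid (SB, CMV promoter) by hydrodynamic tail vein injection, a rapid injection of a large volume that carries plasmid into hepatocytes. Mice of the oncogene groups also received 10 µg of a plasmid for myristoylated, constantly active AKT and 10 µg of a plasmid for activated NRas (CAGGS promoter) or for c-Met (EF1a promoter). From day 8 to 10 onwards, 10 to 11 intraperitoneal injections over 5 to 6 weeks gave thioacetamide (TAA), a hepatotoxin, at 100 mg/kg in the first injection and 200 mg/kg in those that followed, or saline. There were 5 livers of SB/AKT/NRas + TAA, 4 of SB/AKT/c-Met + TAA, 4 of SB/AKT/NRas + saline, 3 of SB/AKT/c-Met + saline, 4 of SB + TAA and 4 of SB + saline. All mice, the SB + saline controls included, carried the transposase plasmid. The tissue was bulk liver, in which tumour and surrounding liver were not separated, and in such samples fewer cells of a type and less RNA per cell cannot be told apart.

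Libraries held 2153000 to 3399000 counts (median 2833000). Human NRAS had 28 to 768 counts in the NRas livers and at most 2 elsewhere, and human MET had 2 to 31 counts in the c-Met livers and 0 elsewhere, as the labels state. SB + saline libraries stood apart in their scaling: their TMM factors were 0.772 to 0.818, against 0.846 to 1.19 in all other livers, and scaling by library size alone moved the median log2 fold change of all genes by 0.38 (TAA in SB livers), 0.26 (c-Met with saline), 0.42 (NRas with saline), 0.37 (c-Met with TAA) and 0.40 (NRas with TAA) against SB + saline. SB + TAA replicate 4 carried skeletal muscle transcripts, with a summed level of 7729 CPM over 10 muscle markers, against 4.71 to 35.1 CPM in the other 23 livers. Hepatocyte markers, 6 genes led by albumin, summed to 48060 to 112800 CPM over all livers. Levels below are CPM scaled by TMM. A fold change is the log2 ratio of 2 group means with its standard error (SE) from the edgeR quasi-likelihood model of all 24 livers, and a gene is called where its adjusted p in that model is under 0.05 over all genes tested.

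Abcc4, which exports cyclic nucleotides, prostaglandins and conjugated bile acids, lies on chromosome 14, bases 118482692 to 118706219 of GRCm38, minus strand. Its promoter is shown because Abcc4 was the member with the largest differences among groups, and because a candidate binding sequence of NRF2 can be read in it. The 250 bases before the first annotated start (RefSeq, GRCm38.p6, chr14:118706220-118706469, minus strand, written 5′ to 3′) are given with the match to the core of the antioxidant response element, TGACNNNGC, in capitals; it lies on the opposite strand and begins 25 bases before the start.
Abcc4: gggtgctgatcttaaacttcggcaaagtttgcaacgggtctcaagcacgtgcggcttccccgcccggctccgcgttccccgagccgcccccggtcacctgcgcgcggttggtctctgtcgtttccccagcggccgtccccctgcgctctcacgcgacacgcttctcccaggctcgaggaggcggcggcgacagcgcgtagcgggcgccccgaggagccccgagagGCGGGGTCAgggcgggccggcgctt
A second annotated start, inside the gene, had the match TGACTCTGC beginning 23 bases before it. Of the 6 members with a RefSeq promoter in the table used here (Abcc2, Abcc4, Abcc5, Abcc9, Abcc10 and Abcc12), 3 held the core on either strand within 250 bases before to 50 bases after a start: Abcc4, Abcc2 with TGACATAGC beginning 98 bases before the start, and Abcc10 with TGACCTGGC beginning 203 bases before one of its starts. The same core was present in 12.4% of all 32851 promoters of that length. The half-site of nuclear receptors, AGGTCA, was in 2 of the 6 (16.3% of all promoters), and the core bound by the aryl hydrocarbon receptor, GCGTG, in 1 of the 6 (32.4%). A member was counted if any of its starts had a match, and Abcc4 and Abcc10 each had more than 1 start. The percentages count single promoters, so they are not in the same unit as the counts of members. A match is a run of letters and not a measured binding site.

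Abcc4 was highest where oncogenes and TAA were combined. It measured 34.7, 38.2, 26.6, 31.3 and 29.6 CPM in SB/AKT/NRas + TAA livers. In SB/AKT/c-Met + TAA livers it measured 41.5, 53.8, 29.1 and 16.1 CPM. With oncogenes alone it measured 5.28, 11.8, 11.7 and 12.4 CPM in SB/AKT/NRas + saline and 4.17, 4.44 and 4.50 CPM in SB/AKT/c-Met + saline. Each of the 9 combination livers lay above each of the 15 other livers. SB + TAA livers held 8.40, 7.89, 7.34 and 9.74 CPM and SB + saline livers 5.99, 4.55, 0.401 and 3.00 CPM, from 14, 8, 1 and 7 counts. In order of the means the groups were SB/AKT/c-Met + TAA (35.2 ± 16.2 CPM, SD), SB/AKT/NRas + TAA (32.1 ± 4.49), SB/AKT/NRas + saline (10.3 ± 3.35), SB + TAA (8.34 ± 1.03), SB/AKT/c-Met + saline (4.37 ± 0.178) and SB + saline (3.48 ± 2.39). Of the neighbours in this order, the combination groups overlapped each other, SB/AKT/NRas + saline overlapped SB + TAA, and SB/AKT/c-Met + saline lay within the range of SB + saline; the other neighbouring pairs did not overlap.

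**Figure D1:**
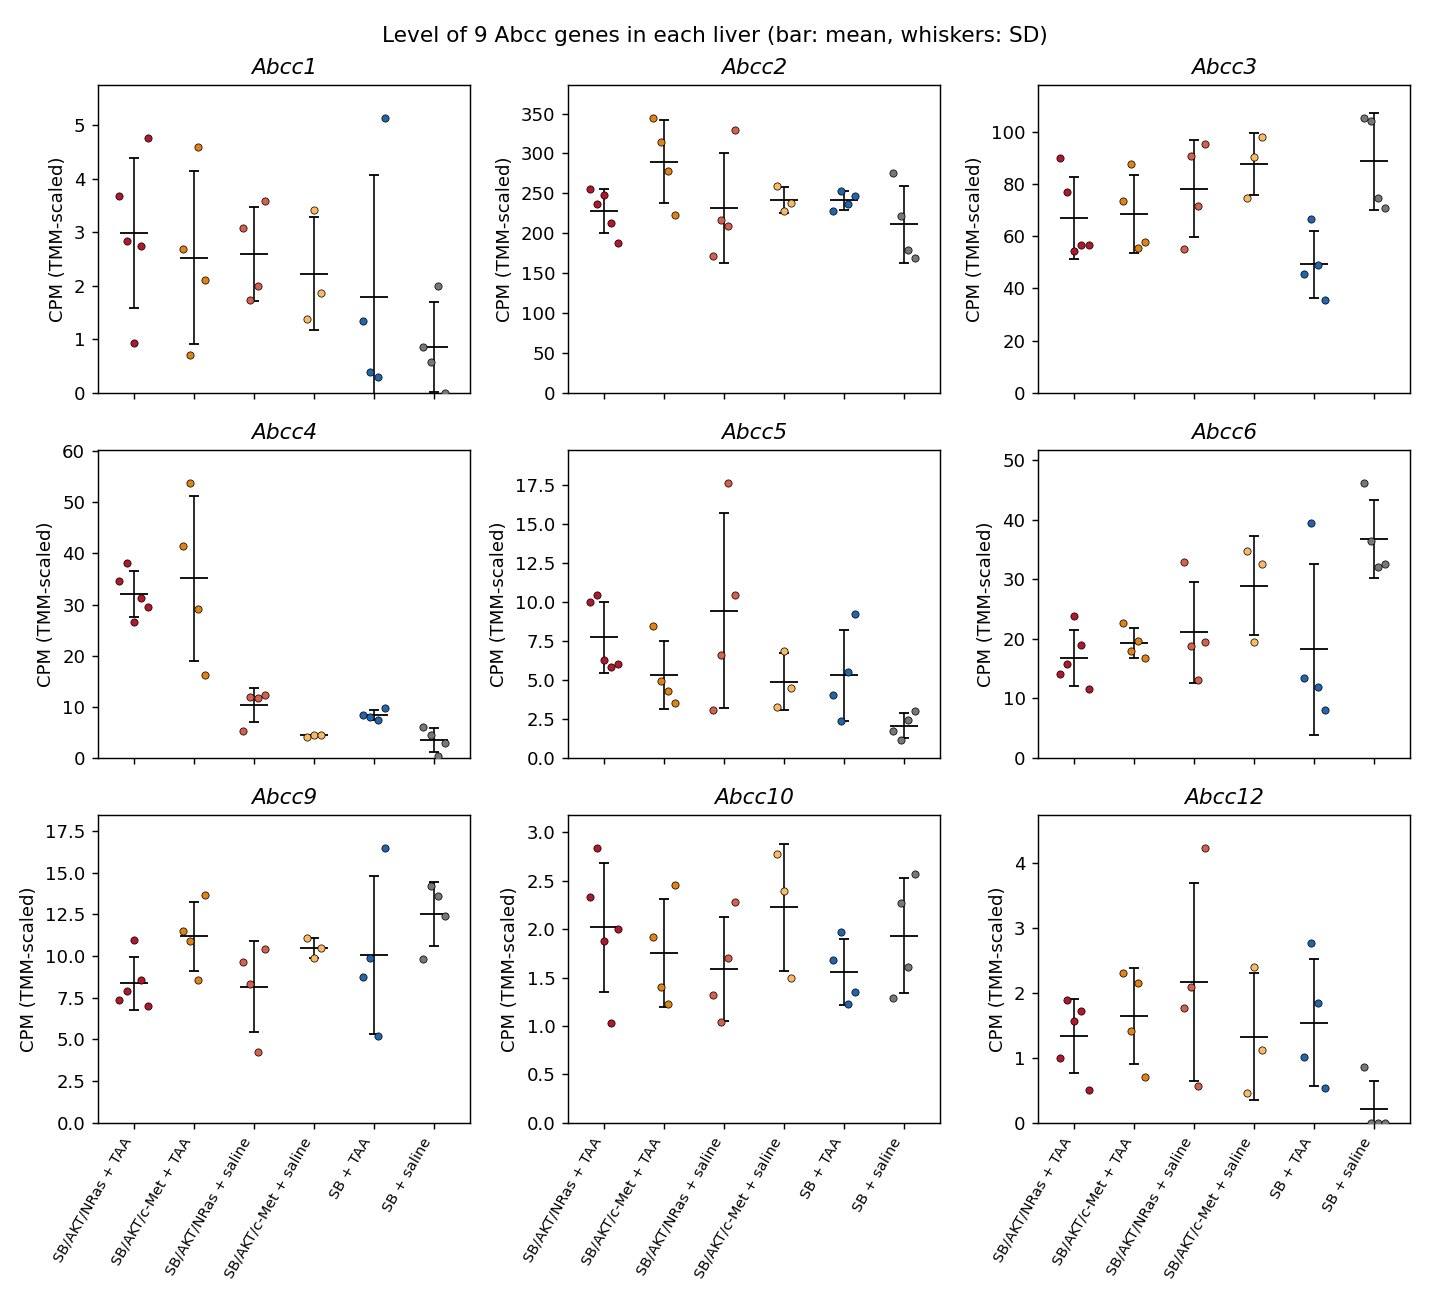
Level of the 9 Abcc genes in every liver, 1 panel per gene (y axis, TMM-scaled CPM, from 0; x axis, the 6 groups); points are livers and bars show the group mean with SD, cut at 0. In the Abcc4 panel all combination livers, at 16.1 to 53.8 CPM, lie above all other livers, which reach 12.4 CPM, while the groups overlap in the Abcc2 panel.

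With TAA in both arms, Abcc4 was 4.18-fold higher in SB/AKT/c-Met than in SB livers (log2 fold change 2.06 ± 0.32, SE) and 3.81-fold higher in SB/AKT/NRas than in SB livers (1.93 ± 0.31). With the same plasmids in both arms, TAA livers were 7.94-fold above saline livers for c-Met (2.99 ± 0.40) and 3.06-fold for NRas (1.61 ± 0.30). Abcc4 was the only member called in these 4 comparisons, in which 0.402% (c-Met in TAA livers), 1.47% (NRas in TAA livers), 0.237% (TAA in c-Met livers) and 0.175% (TAA in NRas livers) of all genes were called. It was called under all 33 alternatives computed, with log2 fold changes of 1.78 to 2.30, 1.86 to 2.02, 2.70 to 3.23 and 1.41 to 1.71. Since these levels stood behind the choice of the genes, nothing is read from the calls. The same holds for the edgeR F test of any difference among the groups, where Abcc4 and Abcc5 were the members called and 9.01% of all genes were called.

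**Figure D2:**
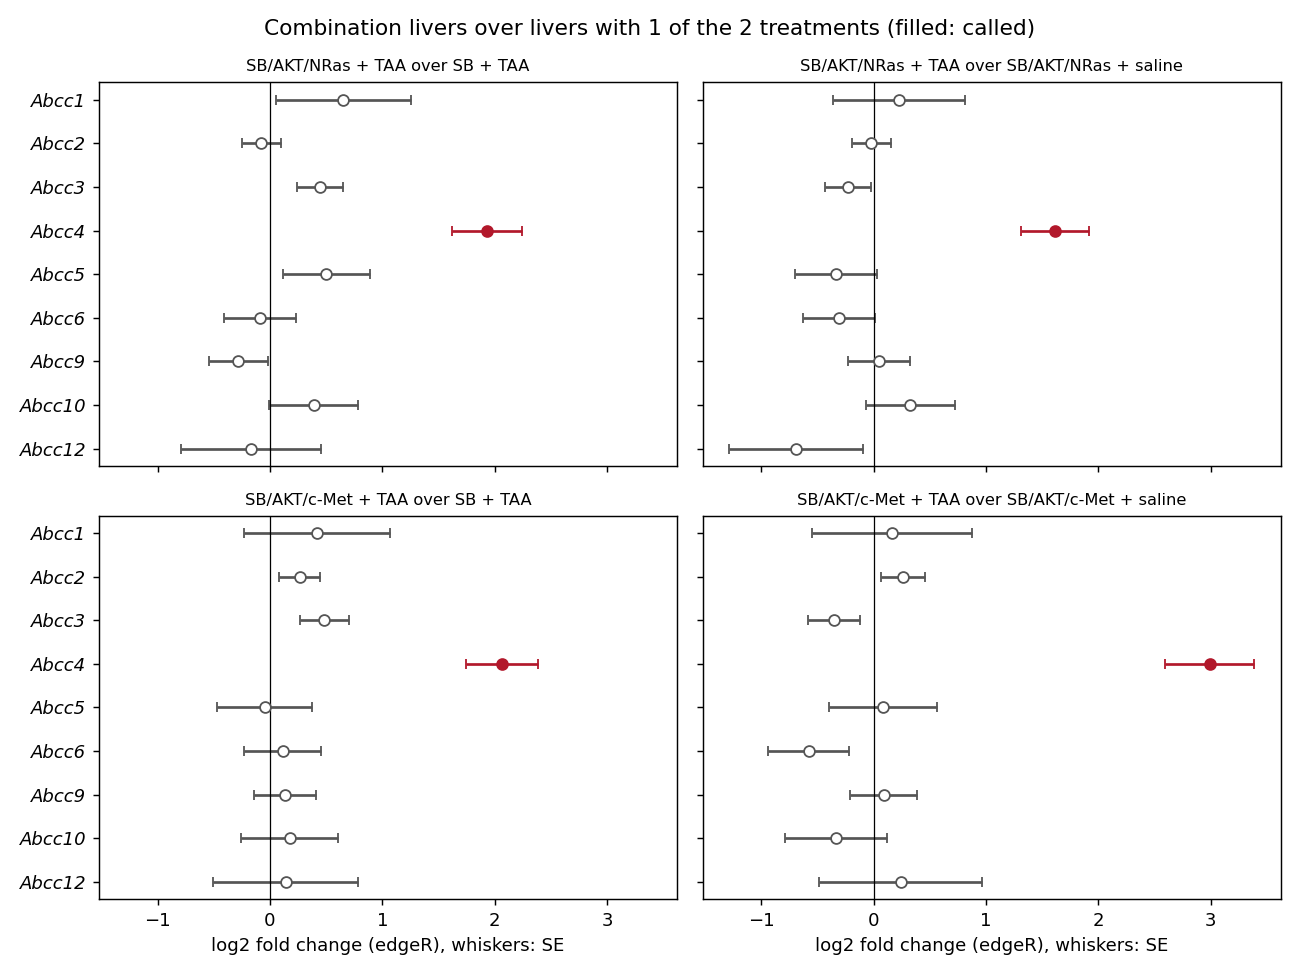
Log2 fold change ± SE of each member (y axis, the 9 genes; x axis, log2 scale) in the 4 comparisons of a combination group with TAA alone or with its plasmids alone; filled points are called by edgeR. Abcc4 is the filled point in each panel, at 1.61 to 2.99, and the other 8 members are open.

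Against SB + saline, Abcc4 was 10.2-fold higher in SB/AKT/c-Met + TAA (log2 fold change 3.35 ± 0.38) and 9.34-fold higher in SB/AKT/NRas + TAA (3.22 ± 0.37). Among the members Abcc4 was the call in the c-Met comparison, where 3.76% of all genes were called, and Abcc4, Abcc5 and Abcc6 were the calls in the NRas comparison, where 9.25% were. Either treatment alone gave smaller values: 1.61 ± 0.41 for NRas with saline, 1.29 ± 0.42 for TAA in SB livers and 0.36 ± 0.50 for c-Met with saline. The first of these was called although the groups overlapped, and the call was lost without SB + saline replicate 3 (1.19), the liver with 1 count, without SB/AKT/NRas + saline replicate 3 (1.55), and when only the groups compared were fitted (1.61). For TAA in SB livers the groups did not overlap and Abcc4 was not called, but it was with DESeq2, with no filter, with library size alone (1.68) and without SB + saline replicate 1 (1.73). The difference between the effect of TAA in c-Met livers and in SB livers was 1.70 ± 0.60 for Abcc4, and between NRas and SB livers 0.32 ± 0.54, neither called. In these tests of a difference between effects 0.0103% and 0.758% of all genes were called and edgeR called 0 of the 9 members, with 1 and 3 members at an unadjusted p under 0.05 and 0 by limma-voom. DESeq2 gave an adjusted p for only 2 members, Abcc2 and Abcc3, in the c-Met test and for all 9 in the NRas test, and called none of these. For NRas over c-Met livers Abcc4 was not called, at −0.13 ± 0.27 with TAA, with overlap, and 1.24 ± 0.42 with saline, where every NRas liver was higher. edgeR called 0 of the 9 members there too, against 0.0103% of all genes with TAA and 0.134% with saline, with 0 and 2 members at an unadjusted p under 0.05 and 0 by limma-voom and DESeq2.

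The oncogene transgenes themselves varied between livers of a group. In SB/AKT/c-Met + TAA livers human MET measured 0.768, 4.93, 5.83 and 10.9 CPM, and the liver with the highest MET was the one with the lowest Abcc4. In SB/AKT/NRas + saline livers human NRAS measured 12.3, 55.3, 218.2 and 66.1 CPM, and the liver with the lowest NRAS was the one with 5.28 CPM of Abcc4. In SB/AKT/NRas + TAA livers NRAS measured 34.0, 47.6, 18.5, 17.9 and 75.7 CPM, with Abcc4 highest in the second of these livers and lowest in the third. Counts of human MET were 2 to 31 per liver, which limits what its order can show.

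Abcc2 (chromosome 19, bases 43782192 to 43840740, plus strand), the canalicular exporter of bilirubin and glutathione conjugates, overlapped between groups in every comparison. Its levels were 255.3, 236.7, 248.3, 212.5 and 188.2 CPM in SB/AKT/NRas + TAA livers and 344.5, 313.9, 278.2 and 222.9 CPM in SB/AKT/c-Met + TAA livers. They were 171.0, 217.1, 208.8 and 330.0 CPM in SB/AKT/NRas + saline and 259.3, 228.3 and 237.7 CPM in SB/AKT/c-Met + saline livers. SB + TAA livers held 227.5, 253.4, 236.7 and 246.7 CPM and SB + saline livers 275.2, 221.7, 179.6 and 168.7 CPM. The log2 fold changes ran between −0.35 and 0.46, the highest being SB/AKT/c-Met + TAA over SB + saline (0.46 ± 0.18), and none was called.

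The balance of Abcc4 to Abcc2 in each liver, as the log2 ratio of their CPM, therefore moved with Abcc4. The ratio averaged −2.83 ± 0.24 in SB/AKT/NRas + TAA and −3.15 ± 0.51 in SB/AKT/c-Met + TAA (SD). It averaged −4.50 ± 0.41 in SB/AKT/NRas + saline, −5.73 ± 0.15 in SB/AKT/c-Met + saline, −4.83 ± 0.17 in SB + TAA and −6.26 ± 1.35 in SB + saline. The combination livers ranged from −3.77 to −2.54 and the other livers from −8.29 to −4.14, with no overlap. Both genes are counted in the same library, so library scaling leaves the ratio nearly unchanged, but it compares counts of different genes and gives no relative abundance of the proteins.

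**Figure D3:**
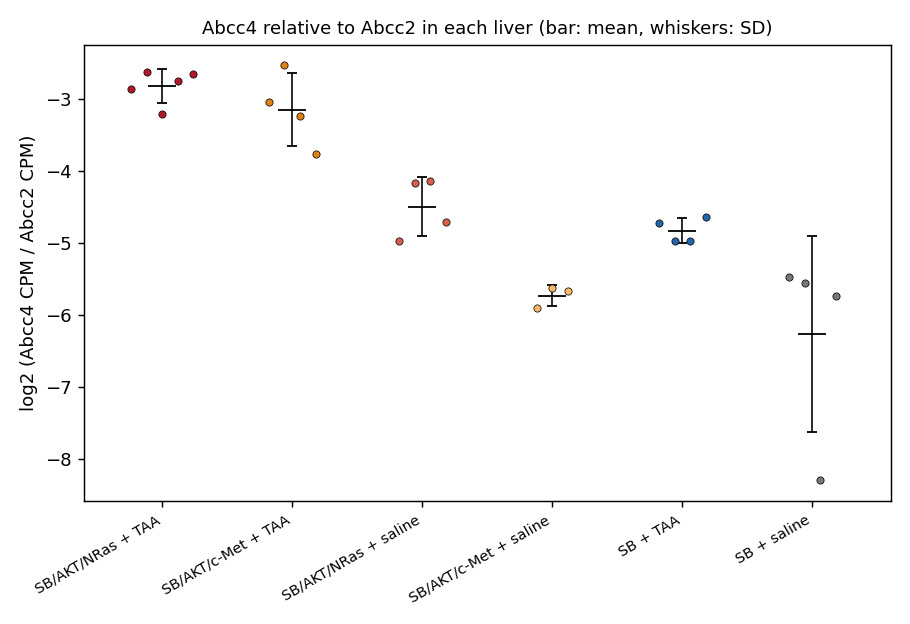
Log2 ratio of Abcc4 to Abcc2 CPM in every liver (y axis, log2 scale; x axis, the 6 groups); points are livers and bars show the mean with SD. The combination livers lie between −3.77 and −2.54, above the other 4 groups, and the lowest point, at −8.29, is the SB + saline liver with 1 count of Abcc4.

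Abcc3 (chromosome 11, bases 94343295 to 94392997, minus strand), the basolateral exporter of glucuronides, was lower with TAA alone. It measured 45.4, 66.7, 48.9 and 35.7 CPM in SB + TAA livers, against 105.3, 104.0, 74.6 and 70.6 CPM in SB + saline livers. All SB + TAA livers lay below all SB + saline livers, and the log2 fold change was −0.85 ± 0.22. It was the only member called for TAA in SB livers, where 5.99% of all genes were called, and 5 of the 9 members had a positive fold change. The call was lost when any of 4 livers was left out, SB + saline replicate 1 (−0.77) or 2 (−0.79) or SB + TAA replicate 1 (−0.82) or 4 (−0.73), and with library size alone (−0.49). In the combination groups Abcc3 overlapped the SB + saline range, with 89.8, 77.0, 54.2, 56.7 and 56.6 CPM in SB/AKT/NRas + TAA livers and 73.4, 87.6, 55.5 and 57.9 CPM in SB/AKT/c-Met + TAA livers. It ranged from 55.0 to 95.4 CPM in SB/AKT/NRas + saline and from 74.5 to 97.9 CPM in SB/AKT/c-Met + saline. Thus Abcc3 and Abcc4, exporters of the same membrane, had fold changes of opposite sign in SB/AKT/NRas + TAA over SB + saline (−0.41 ± 0.20 for Abcc3, not called); with library size alone the value of Abcc3 was 0.01.

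Abcc5 (chromosome 16, bases 20331303 to 20426394, minus strand), an exporter of cyclic GMP and other organic anions, was lowest in SB + saline. It measured 3.08, 6.61, 17.6 and 10.4 CPM in SB/AKT/NRas + saline and 10.0, 10.4, 6.27, 5.85 and 6.01 CPM in SB/AKT/NRas + TAA livers, against 1.71, 1.14, 2.41 and 3.00 CPM in SB + saline. Every NRas liver lay above every SB + saline liver, with log2 fold changes of 2.17 ± 0.48 (saline) and 1.84 ± 0.47 (TAA), both called. The call with saline was lost without SB/AKT/NRas + saline replicate 3 (1.68), the liver with 17.6 CPM. In SB/AKT/c-Met livers Abcc5 measured 8.45, 4.93, 4.29 and 3.51 CPM with TAA and 3.24, 6.84 and 4.50 CPM with saline, each above all SB + saline livers and not called (1.29 ± 0.51 and 1.21 ± 0.55). SB + TAA livers held 4.03, 2.37, 5.50 and 9.20 CPM (1.34 ± 0.51 over SB + saline, with overlap, and 0.92 without replicate 4, the liver with muscle transcripts).

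In NRas livers with saline, Abcc4, Abcc5 and Abcc12 were the members called, where 8.41% of all genes were called. In c-Met livers with saline edgeR called 0 of the 9 members, against 0.64% of all genes, with 2 at an unadjusted p under 0.05 and 0 by limma-voom and by DESeq2. As a sum, markers of bile duct epithelium were higher in every NRas liver than in SB + saline livers. Of 7 such markers tested, 3 rose in SB/AKT/NRas + saline over SB + saline and none fell. Listed by liver as for Abcc5 above, their summed level in the saline NRas livers was 154.3, 2585, 8811 and 924.6 CPM, and 61.6 to 105.5 CPM in SB + saline. The ranks of the sum and of Abcc5 were alike in part. In the saline NRas livers the highest sum, 8811 CPM, went with the highest Abcc5, 17.6 CPM. The lowest sum, 154.3 CPM, went with the lowest Abcc5, 3.08 CPM. The liver with 10.4 CPM of Abcc5 had a sum of 924.6 CPM, below the 2585 CPM of the liver with 6.61 CPM of Abcc5. In SB/AKT/NRas + TAA livers the sum was 1280, 1572, 340.2, 231.0 and 4766 CPM, and the liver with the highest sum had 6.01 CPM of Abcc5, below the 10.0 and 10.4 CPM of the livers with 1280 and 1572 CPM. The livers with sums of 340.2 and 231.0 CPM had 6.27 and 5.85 CPM of Abcc5. In the saline NRas livers most of the sum is Spp1, osteopontin, which other cells also make (98.5 to 8582 CPM in SB/AKT/NRas + saline, against 40.2 to 50.1 CPM in SB + saline); the keratin Krt19 was at 0 in some SB/AKT/NRas + saline livers and at most 18.8 CPM. The part of bile duct cells in the level of Abcc5 was not tested.

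Abcc6 (chromosome 7, bases 45967555 to 46030302, minus strand), a hepatocyte transporter needed for the release of ATP from liver and lost in pseudoxanthoma elasticum, was lower in the combination livers. It measured 14.0, 15.8, 23.8, 18.9 and 11.5 CPM in SB/AKT/NRas + TAA and 22.7, 17.9, 19.6 and 16.8 CPM in SB/AKT/c-Met + TAA livers, against 46.2, 36.4, 32.1 and 32.5 CPM in SB + saline. All combination livers lay below all SB + saline livers. The log2 fold change was −1.13 ± 0.31 for NRas, which was called, and −0.93 ± 0.33 for c-Met, which was not, though it was with no filter, with only the groups compared and without SB + TAA replicate 2. The NRas call was lost with library size alone (−0.75) and without SB + saline replicate 1 (−1.03) or SB/AKT/NRas + TAA replicate 1 (−1.08) or 5 (−1.02). SB + TAA livers held 13.4, 39.5, 11.9 and 8.11 CPM, of which 3 lay below every SB + saline liver; the log2 fold change of −1.04 ± 0.33 was not called. It was called by limma-voom (−1.33) and by DESeq2 (−1.04), with no filter (−1.06), without SB + TAA replicate 2 (−1.74), the liver with 39.5 CPM, and without SB/AKT/NRas + saline replicate 1 (−1.06) or 3 (−1.05). With saline Abcc6 measured 33.0, 18.8, 13.1 and 19.5 CPM in SB/AKT/NRas and 34.7, 19.5 and 32.6 CPM in SB/AKT/c-Met livers, both overlapping SB + saline. Over the 24 livers the log2 levels of Abcc5 and Abcc6 ran in opposite directions (Pearson r = −0.73, and −0.68 after group means were removed), a description over livers that share the library scaling. This pair is named because its r was the furthest from 0 among pairs of members averaging at least 5 CPM. Of 6 hepatocyte markers, 4 fell and none rose in SB/AKT/NRas + TAA over SB + saline, where 9.25% of all genes were called. The part of these markers' cells in the level of Abcc6 was not tested.

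Abcc1 (chromosome 16, bases 14361558 to 14475737, plus strand), a widely expressed exporter of glutathione conjugates and leukotrienes, was near the limit of detection in these livers, with 161 counts in all. It measured 3.67, 2.84, 0.941, 2.75 and 4.76 CPM in SB/AKT/NRas + TAA and 2.69, 0.704, 4.60 and 2.11 CPM in SB/AKT/c-Met + TAA livers. SB + TAA livers held 1.34, 0.395, 0.306 and 5.14 CPM, the last in the liver with muscle transcripts, and SB + saline livers 0.856, 0.568, 2.00 and 0 CPM. The saline groups with oncogenes lay between 1.39 and 3.58 CPM. Over SB + saline the log2 fold changes were 1.72 ± 0.73 (NRas + TAA) and 1.48 ± 0.78 (c-Met + TAA), with overlap and no call. Without SB + saline replicate 3 they were 2.57 and 2.33, and with library size alone the NRas + TAA value was called (2.13). The value for TAA in SB livers, 1.07, turned to −0.36 without SB + TAA replicate 4.

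Abcc12 (chromosome 8, bases 86482260 to 86580686, minus strand), a transporter of little-known substrates, had 96 counts in all, of which 2 were in SB + saline, both in 1 liver. It measured 1.76, 2.09, 0.568 and 4.23 CPM in SB/AKT/NRas + saline livers, against 0.856, 0, 0 and 0 CPM in SB + saline. The ratio of these groups was 9.50, from 25 and 2 counts (exact 95% counting interval 2.37 to 82.8). The ratio over SB + saline was 7.34 (1.77 to 65.0) in SB/AKT/c-Met + TAA, 6.44 (1.54 to 57.2) in SB + TAA, 6.33 (1.38 to 58.8) in SB/AKT/c-Met + saline and 5.77 (1.41 to 50.7) in SB/AKT/NRas + TAA. These intervals cover counting error only. Its lone call, in NRas livers with saline, was lost when any of 5 livers was left out and when only the groups compared were fitted.

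Abcc10 (chromosome 17, bases 46303221 to 46328352, minus strand), a broad-range exporter, gave 3 to 9 counts per liver, log2 fold changes between −0.45 and 0.39, and no call. Abcc9 (chromosome 6, bases 142587862 to 142702315, minus strand), the channel subunit, ranged from 7.02 to 11.0 CPM in SB/AKT/NRas + TAA, 8.59 to 13.7 CPM in SB/AKT/c-Met + TAA, as against 9.84 to 14.2 CPM in SB + saline, with no call in any comparison. SB + TAA livers held 8.74, 9.87, 5.20 and 16.5 CPM of Abcc9, the highest again in the liver with muscle transcripts, and the fold change for TAA in SB livers was −0.30, or −0.67 without it. Kcnj8, the pore subunit that pairs with SUR2, was not called in any comparison either. Cftr, the chloride channel that is the remaining tested gene of the subfamily, had 0 counts in the 4 SB + saline livers and 17 in SB/AKT/NRas + saline, in 2 of 4 livers, at least 4.31-fold more than a floor of 3 counts over the SB + saline group. It was not called.

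Taken as a list, the 9 members held fold changes of both signs in every comparison. For c-Met in TAA livers 8 of the 9 were positive (median log2 fold change 0.175, all genes −0.01). Over SB + saline 5 or 6 of the 9 members were positive. Their median log2 fold change over SB + saline was 0.46 in SB/AKT/c-Met + TAA (median of all genes 0.04), 0.11 in SB/AKT/NRas + TAA (0.07), 0.13 in NRas with saline (0.07), 0.20 in c-Met with saline (0.02) and 0.19 with TAA in SB livers (0.09).

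Of the genes known to be switched on by NRF2, some rose and none fell in each comparison over SB + saline. Of 15 tested, 9 rose and none fell in SB/AKT/NRas + TAA over SB + saline (median log2 fold change 1.84, all genes 0.07), and 7 rose and none fell in SB/AKT/c-Met + TAA over SB + saline (1.33, all genes 0.04). In these comparisons 9.25% and 3.76% of all genes were called. In the 4 comparisons of a combination with a single treatment, 1 or 2 of the 15 rose and none fell, where 0.175% to 1.47% of all genes were called. Cbr3, a carbonyl reductase, measured 90.8, 72.3, 57.7, 70.1 and 61.2 CPM in SB/AKT/NRas + TAA, against 5.71, 9.08, 10.1 and 5.41 CPM in SB + TAA livers, with no overlap (log2 fold change 3.22 ± 0.46, edgeR adjusted p = 9.46e-05). In SB/AKT/c-Met + TAA it measured 49.9, 77.4, 46.3 and 22.8 CPM, also without overlap (2.70 ± 0.47, edgeR adjusted p = 0.00329), a call lost with robust estimation. With saline Cbr3 already averaged 22.59 CPM in SB/AKT/c-Met and 23.09 CPM in SB/AKT/NRas livers, against 2.524 CPM in SB + saline. Both differences were called (3.192 ± 0.622 and 3.217 ± 0.594, edgeR adjusted p = 0.00919 and 0.00136). The c-Met call was lost with limma-voom, with robust estimation and when either of 2 livers was left out. Slc7a11, the cystine carrier that feeds glutathione synthesis, measured 51.5, 46.8, 37.1 and 14.0 CPM in SB/AKT/c-Met + TAA, against 0.926, 0.342 and 0 CPM in SB/AKT/c-Met + saline livers (edgeR adjusted p = 0.000661, not called by limma-voom). Srxn1, sulfiredoxin, ranged from 74.9 to 133.2 CPM in SB/AKT/NRas + TAA, against 17.6 to 24.4 CPM in SB + saline livers (2.33 ± 0.34, edgeR adjusted p = 5.5e-05). It averaged 71.56 CPM in SB/AKT/NRas + saline and 47.24 CPM in SB + TAA. Both were called over SB + saline (1.845 ± 0.344 and 1.241 ± 0.345, edgeR adjusted p = 0.0015 and 0.0307). The SB + TAA call was lost with limma-voom, with robust estimation and when any of 6 livers was left out. For SB/AKT/NRas + TAA, Srxn1 was not called over SB + TAA (1.095 ± 0.306) or over SB/AKT/NRas + saline (0.49 ± 0.299). Gsta1, a glutathione transferase of a family with near-identical copies, rose by 4.37 ± 0.50 with TAA in SB livers (edgeR adjusted p = 4.72e-06), and this effect was smaller in NRas livers (difference −3.18 ± 0.61, edgeR adjusted p = 0.0115), though not called by limma-voom or with robust estimation. Gsta1 averaged 298.7 CPM in SB + TAA, 240 CPM in SB/AKT/NRas + TAA and 182 CPM in SB/AKT/c-Met + TAA. Gstm3, of the same list, averaged 1589 CPM in SB/AKT/NRas + TAA and 959.7 CPM in SB/AKT/c-Met + TAA. With saline it averaged 762.5 CPM in SB/AKT/NRas, 1002 CPM in SB/AKT/c-Met and 73.46 CPM in SB livers, and it averaged 551.9 CPM in SB + TAA. With a single treatment, 8 of the 15 rose with NRas and saline, 6 with TAA in SB livers and 4 with c-Met and saline, and none fell. Of all genes 8.41%, 5.99% and 0.64% were called there. In the same order the log2 fold changes of Abcc4 were 1.61 ± 0.41, 1.29 ± 0.42 and 0.36 ± 0.50. Whether NRF2 acts on Abcc4 was not tested.

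Genes known to be switched on by CAR or PXR moved in both directions. Of 13 tested, 5 rose and 2 fell in SB/AKT/NRas + TAA over SB + saline, and 3 rose and 2 fell in SB/AKT/c-Met + TAA over SB + saline. The shares of all genes called were 9.25% and 3.76%. With TAA in both arms 3 rose and none fell for NRas and for c-Met alike, where 1.47% and 0.402% of all genes were called. Cyp2a4, a cytochrome P450 nearly identical to Cyp2a5 so that its counts are uncertain, averaged 425 CPM in SB/AKT/NRas + TAA and 420 CPM in SB/AKT/c-Met + TAA, against 24.6 CPM in SB + TAA (log2 fold changes 4.09 ± 0.56 and 4.07 ± 0.57, edgeR adjusted p = 6.2e-05 and 0.000271). With saline Cyp2a4 already averaged 79.01 CPM in SB/AKT/NRas and 97.35 CPM in SB/AKT/c-Met livers, against 3.538 CPM in SB + saline. Both differences were called (4.456 ± 0.68 and 4.758 ± 0.7, edgeR adjusted p = 0.000311 and 0.00051), the c-Met one not by limma-voom. TAA added 2.42 ± 0.507 in NRas livers, a call lost when any of 6 livers was left out. In c-Met livers it added 2.099 ± 0.573, not called. Cyp2b9, a P450 of a family with similar copies, measured 27.7, 20.8, 23.8, 15.1 and 7.52 CPM in SB/AKT/NRas + TAA, against 0, 0, 0 and 0.541 CPM in SB + TAA (edgeR adjusted p = 6.2e-05). It averaged 10.93 CPM in SB/AKT/c-Met + saline, against 0.4983 CPM in SB + saline (4.51 ± 0.943, edgeR adjusted p = 0.015). That call was lost with limma-voom, with robust estimation and when any of 4 livers was left out. Cyp2c29, a main P450 of the mouse CAR response, fell by 2.73 on the log2 scale with TAA in SB livers (SE 0.44, edgeR adjusted p = 0.000471). Gsta2, another glutathione transferase, rose with TAA in NRas livers (1.45 ± 0.25, edgeR adjusted p = 0.00741), a call kept in every alternative.

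**Figure D4:**
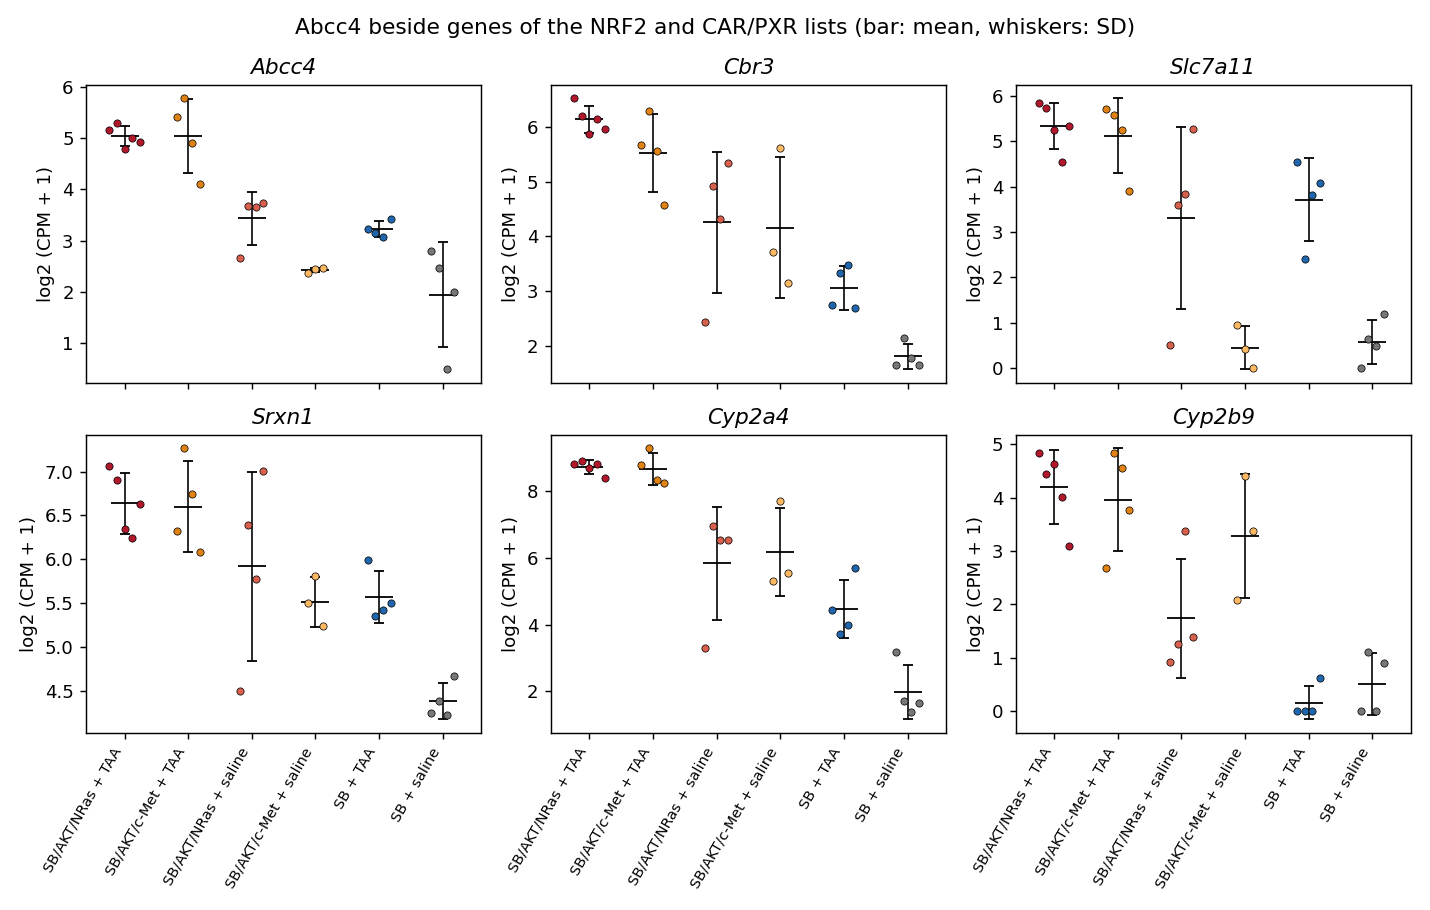
Level of Abcc4 and of 5 genes of the NRF2 and CAR/PXR lists (Cbr3, Slc7a11, Srxn1, Cyp2a4, Cyp2b9) in every liver (y axis, log2 of CPM + 1; x axis, the 6 groups); points are livers and bars show the mean with SD. Cyp2b9 is at 0 to 0.541 CPM in SB + TAA, where Slc7a11 reaches 22.2 CPM, and both are above 5 CPM in all 9 combination livers.

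Of 10 genes for the factors that regulate these transporters, 1 rose and 2 fell in SB/AKT/NRas + TAA over SB + saline, where 9.25% of all genes were called. Nfe2l2, which encodes NRF2, rose there (0.80 ± 0.17, edgeR adjusted p = 0.00374) and in SB/AKT/c-Met + TAA over SB + saline (0.85 ± 0.18, edgeR adjusted p = 0.00672). With NRas and saline Nfe2l2 also rose over SB + saline (0.66 ± 0.18, edgeR adjusted p = 0.0244). That call was lost without SB + saline replicate 1 or SB/AKT/NRas + saline replicate 3 or 4, and with only the groups compared. Nr1i3, which encodes CAR, fell in SB/AKT/NRas + TAA livers (−1.38 ± 0.32, edgeR adjusted p = 0.00638), in SB/AKT/NRas + saline livers (−1.58 ± 0.35, edgeR adjusted p = 0.00587) and in SB + TAA (−1.64 ± 0.35, edgeR adjusted p = 0.00577), each over SB + saline. It also fell in SB/AKT/c-Met + TAA over SB + saline (−1.27 ± 0.34, edgeR adjusted p = 0.0339), a call lost without SB + saline replicate 1 or 4 or SB/AKT/c-Met + TAA replicate 2, 3 or 4, with library size alone and with robust estimation. Ppara, a receptor for fatty acids, fell in SB/AKT/NRas + TAA livers over SB + saline (−0.90 ± 0.22, edgeR adjusted p = 0.0079), a call lost without SB + saline replicate 1 and with library size alone. None of the 10 was called in the 4 comparisons of a combination with a single treatment, where 0.175% to 1.47% of all genes were.

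Other transporters of the 2 hepatocyte membranes moved in both directions. Of 7 canalicular genes tested, 2 rose and none fell in SB/AKT/NRas + TAA over SB + saline, where 9.25% of all genes were called: Abcb1a, a P-glycoprotein (1.96 ± 0.42, edgeR adjusted p = 0.00347), and Abcg5, part of the sterol exporter (0.94 ± 0.25, edgeR adjusted p = 0.0146, a call lost without SB + saline replicate 3 or 4). Abcb1a also rose over SB + saline with TAA in SB livers (2.30 ± 0.43, edgeR adjusted p = 0.00202) and with NRas and saline (2.365 ± 0.432, edgeR adjusted p = 0.00124). The effect of TAA on it differed between NRas and SB livers (difference −2.70 ± 0.55, edgeR adjusted p = 0.0159). In NRas livers Abcb1a averaged 15.82 CPM with TAA and 20.79 CPM with saline, so it did not rise further with TAA. In SB/AKT/c-Met + TAA over SB + saline, where 3.76% of all genes were called, 1 of the 7 rose, Abcb1a, and 1 fell, Abcg2, an exporter of sulfates (−0.73 ± 0.20, edgeR adjusted p = 0.0307). Abcg2 also fell with TAA in SB livers (−0.71 ± 0.20, edgeR adjusted p = 0.0285). Both calls of Abcg2 were lost with library size alone and without SB + saline replicate 1, 2 or 4. The call in SB/AKT/c-Met + TAA was also lost without replicate 1, 2 or 4 of that group, and the call with TAA in SB livers without SB + TAA replicate 1 or 4 or with only the groups compared. Of 7 basolateral genes tested, 1 rose and 3 fell in SB/AKT/NRas + TAA over SB + saline, among those that fell the uptake carriers Slco1a1 (−3.35 ± 0.87, edgeR adjusted p = 0.0138, a call lost with robust estimation) and Slco2b1 (−0.97 ± 0.23, edgeR adjusted p = 0.00632). Of 7 genes of glutathione synthesis and turnover tested, 3 rose and none fell in the same comparison. In the 4 comparisons of a combination with a single treatment none of the canalicular or basolateral genes was called in either direction, against 0.175% to 1.47% of all genes.

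The genes whose log2 level was most like that of Abcc4 over the 24 livers, of 9251 with a mean of at least 5 CPM, were Gipc2 (Pearson r = 0.89, and 0.69 after group means were removed), Cyp2a4 (0.86 and 0.55), Vat1 (0.85 and 0.86), Srxn1 (0.84 and 0.42) and Prelid1 (0.84 and 0.63). Gipc2, a PDZ-domain protein, averaged 34.2 ± 11.6 CPM (SD) in SB/AKT/NRas + TAA, 20.7 ± 5.30 in SB/AKT/c-Met + TAA, 8.72 ± 6.52 in SB/AKT/NRas + saline, 7.12 ± 5.00 in SB/AKT/c-Met + saline, 2.85 ± 0.486 in SB + TAA and 0.677 ± 0.539 in SB + saline. These correlations describe livers that share the same groups and library scaling, and they were taken as the highest of many.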

How the data were processed

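RNA was extracted from frozen bulk liver of 24 mice, primed on poly(A) tails with a sample index and a molecular tag, and sequenced. The authors separated samples with Sabre, aligned reads (STAR) to GRCm38 extended by the human NRAS and MET transcripts, removed duplicate molecular tags with Picard and Samtools in RNAsik, and counted forward-strand reads of mapping quality at least 10 per gene with featureCounts 1.6.4. What the authors deposited is a table of raw gene counts, without normalization. Since the AKT construct was not added to that genome, its level was not analysed here. Each library is 1 mouse, and groups follow the labels.

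Counts were analysed with edgeR 4.0.16 in R 4.3.3. The filter (0.5 CPM or more in 2 or more libraries) and the comparisons of single treatments with SB + saline and of combinations with single treatments were those of the study's methods. Combinations against SB + saline, NRas against c-Met and the differences between effects of TAA were added, and 1 quasi-likelihood model of 6 group means was fitted to all 24 libraries after TMM scaling, with Benjamini-Hochberg adjustment over all genes kept. CPM shown are TMM-scaled. The same model was tested on simulated data with the real means and library sizes: for SB/AKT/NRas + TAA over SB + saline it recovered 39% of genes changed 2-fold and 76% of genes changed 4-fold (52.9% and 94% at 5 CPM or more) with 9 false calls, over 19381 genes. Differences of genes with few counts, as in Abcc1, Abcc10 and Abcc12, can therefore be missed.

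Alternatives were limma-voom (limma 3.58.1), DESeq2 1.42.0, other scaling, other or no filters, robust estimation, a prior count of 2 in place of 0.5, a 2-fold threshold, a fit of only the groups compared, a replicate block and leaving out each library. Members and gene lists were chosen with earlier results of these data known. Named genes were all members, Abcc8 and Cftr, up to 4 genes of each other list with the smallest F test p, human NRAS and MET, and the 5 genes most correlated with the member of smallest F test p among genes of at least 5 CPM. Promoters are from RefSeq (GRCm38.p6); protein sequences, and promoters of Abcc1, Abcc3 and Abcc6, were not used here. Figures used matplotlib 3.10.9 in Python 3.11.15.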

Additional observations from a re-analysis of the deposited data

Results flagged for a closer look

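Of 45 sets of livers checked (9 genes in the groups of 4 or 5), 3 held 1 liver set far from the others of its group; chance gives about 1 in 20. Abcc4 measured 5.28 CPM in SB/AKT/NRas + saline replicate 1, below the other 3 livers at 11.7 to 12.4 CPM, and this liver also had the lowest human NRAS of its group (28 counts). Abcc6 measured 39.5 CPM in SB + TAA replicate 2, above the other 3 livers at 8.11 to 13.4 CPM. Abcc12 measured 0.856 CPM in SB + saline replicate 1, from 2 counts, with 0 counts in the other 3 livers.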

How the results depend on the processing

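The calls of Abcc4 in the 4 comparisons of a combination with a single treatment held in all alternatives. For TAA in SB livers the number of members called, 1 in the model reported, was 2 with limma-voom, 3 with DESeq2, 3 with library size alone, 4 with no filter and 0 with the 2-fold threshold, and 0 to 3 with 1 liver left out. For NRas with saline it was 3, against 1 when only the groups compared were fitted and 1 to 4 with 1 liver left out. For SB/AKT/c-Met + TAA over SB + saline it was 1, against 3 with library size alone, 2 with no filter, 2 with only the groups compared and 1 to 2 with 1 liver left out; for SB/AKT/NRas + TAA it was 3, against 4 with library size alone, 2 with a replicate block (Abcc6 not called, −0.99; nor was Ppara) and 2 to 3 with 1 liver left out. For NRas against c-Met with saline it was 0, or 1 with no filter, and for the difference in the effect of TAA between NRas and SB livers 0, or 0 to 1 with 1 liver left out. The F test gave 2, against 4 with DESeq2, 4 with no filter, 1 with a replicate block and 1 to 4 with 1 liver left out. A prior count of 2 moved the mean Abcc4 to Abcc2 ratio of SB/AKT/c-Met + saline to −5.58, against −5.73 with 0.5. The causes of these changes were not tested.

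Replicate numbers did not pair the livers: the mean correlation of same-numbered livers' deviations was −0.0062 over 55 pairs (−0.453 to 0.232), and of differently numbered livers 0.0018 over 184.

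Without SB + TAA replicate 4, muscle markers turned in sign in its comparisons. For TAA in SB livers the values became −0.08 for Des, −1.09 for Acta1, −0.88 for Myh1, −1.94 for Ckm, −1.01 for Tnnt3, −1.61 for Tnnc2, −0.10 for Mylpf, −0.51 for Pvalb, −1.24 for Atp2a1 and −2.59 for Ryr1. For c-Met and NRas in TAA livers they became 0.25 and 0.89 for Acta1, 0.50 and 1.95 for Ckm, 0.066 and 0.48 for Tnnc2, 0.34 and 0.57 for Mylpf and 1.57 and 2.67 for Ryr1, and 0.52 for Atp2a1 with NRas. With another liver left out the far end of the range was 3.47 for Des, 9.87 for Pvalb and 5.98 for Ryr1 (TAA in SB livers) and −8.16 for Acta1, −11.4 for Ckm, −9.35 for Tnnc2, −6.25 for Mylpf and −8.99 for Ryr1 (c-Met in TAA livers). No called fold change of the 9 members turned in sign.

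Depth limits the genes of few counts: Abcc1, Abcc10 and Abcc12 averaged under 5 CPM in every group, and a level of 0 CPM in 1 liver allows up to 3 counts.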
